A study of Homo sapiens with 6 samples.

Results

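The 86 genes described here encode the nuclear-encoded subunits of oxidative phosphorylation. They were chosen by gene symbol alone, from protein-coding genes: NDUFA, NDUFB, NDUFC, NDUFS and NDUFV genes without the NDUFAF assembly factors, SDHA to SDHD, UQCR genes and CYC1, COX4I1, COX5A, COX5B, COX6 and COX7 genes and COX8A, and ATP5F1, ATP5M and ATP5P genes. Of 69292 gene IDs in the count table, 257 had a symbol of these forms. Of those, 169 were not protein-coding and 2 were readthrough loci (ATP5MF-PTCD1 and NDUFC2-KCTD14), which left 86 genes. Complex I accounted for 37 of them, complex II for 4, complex III for 9, complex IV for 11 (NDUFA4 included) and complex V for 17. Another 8 were tissue isoforms or paralogs. A filter on low counts passed 83 of the 86. COX6A2 and COX7B2, isoforms of heart and skeletal muscle and of testis, had 0 counts in every library, and ATP5MGL, a paralog of ATP5MG, had 2 to 8 counts per library.

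RNA was sequenced from MDA-MB-231, an established human cell line from a triple-negative breast cancer that is labelled as mesenchymal stem-like. There were 3 groups of 2 libraries: parental cells without drug, a derivative kept in 20 µM everolimus for months, and a derivative kept in 30 µM ridaforolimus for months. Both drugs are analogs of rapamycin that inhibit the kinase mTOR. The protocol says that the parental cells had no drug, although their treatment field reads DMSO. Each resistant line is 1 derivative, so its resistance, the long drug exposure and whatever else happened to those cells in culture cannot be told apart. Nothing in the labels says that the libraries of a group came from separate cultures, so p-values measure the spread between these libraries, which may be technical.

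Complexes I and II pass electrons from NADH and succinate to ubiquinone, complex III passes them on to cytochrome c, and complex IV passes them to oxygen. Complexes I, III and IV pump protons across the inner mitochondrial membrane, and complex V, the ATP synthase, uses the return flow to make ATP. Most subunits are nuclear genes, and a small set of core subunits of complexes I, III, IV and V is encoded in mitochondrial DNA. The transcription factors NRF1, GABPA (an ETS factor) and YY1 and the coactivator PGC-1alpha are known to drive the nuclear genes, and mTOR is known to promote mitochondrial gene expression.

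Promoter sequence is given here as 4 stretches. COX7B and NDUFV3 are described in detail below, and NDUFB4 and COX5B hold the motifs most often tied to this gene family. These 4 genes did not move together: their log2 fold changes in the ridaforolimus-resistant line against parental cells were 0.87 (COX7B), 0.26 (NDUFB4), -0.27 (COX5B) and -0.62 (NDUFV3). The stretches were picked after the values and the motifs had been seen. Each is RefSeq sequence (GRCh38.p14) in the gene's direction, shortened so that it holds no GENCODE exon. The stretch therefore ends 30 bases before the RefSeq start for COX7B, 44 for NDUFV3, 27 for NDUFB4 and 22 for COX5B, and the NDUFV3 start used by RefSeq lies inside the longer GENCODE gene. Capitals mark a searched motif on either strand: the NRF1 core GCATGCGC, the ETS core CCGGAAG, the YY1 core AAGATGGCG or the CCAAT box CCAAT. The motifs do not overlap one another except that the NRF1 core can read on both strands at once, as in NDUFB4.
COX7B, chrX:77899218-77899437, plus strand: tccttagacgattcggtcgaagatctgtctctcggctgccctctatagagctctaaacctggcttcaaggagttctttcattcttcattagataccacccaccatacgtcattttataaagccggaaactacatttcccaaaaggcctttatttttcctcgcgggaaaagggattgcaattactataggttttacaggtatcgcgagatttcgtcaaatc
NDUFV3, chr21:42893059-42893264, plus strand: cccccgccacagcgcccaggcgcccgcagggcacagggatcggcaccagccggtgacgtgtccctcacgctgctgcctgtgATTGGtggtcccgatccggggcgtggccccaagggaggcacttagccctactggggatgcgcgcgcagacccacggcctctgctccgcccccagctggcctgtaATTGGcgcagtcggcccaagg
NDUFB4, chr3:120596086-120596308, plus strand: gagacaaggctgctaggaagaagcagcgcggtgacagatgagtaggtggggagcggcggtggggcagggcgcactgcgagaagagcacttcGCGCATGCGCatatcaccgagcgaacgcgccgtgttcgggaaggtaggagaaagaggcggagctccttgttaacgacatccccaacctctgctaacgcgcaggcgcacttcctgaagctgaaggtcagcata
COX5B, chr2:97645812-97646039, plus strand: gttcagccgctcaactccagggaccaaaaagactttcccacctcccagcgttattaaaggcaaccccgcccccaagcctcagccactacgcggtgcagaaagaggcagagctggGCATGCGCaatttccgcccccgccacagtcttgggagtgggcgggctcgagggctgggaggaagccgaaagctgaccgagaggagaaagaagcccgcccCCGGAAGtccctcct
Positions below count from the RefSeq start, not from the end of the printed stretch. The COX7B stretch holds none of the 4 motifs, although its whole promoter window, exon bases included, holds a CCAAT box. NDUFV3 has CCAAT boxes 169 and 65 bases before its RefSeq start. COX5B has an NRF1 core 136 and an ETS core 37 bases before it, and the NDUFB4 core lies at 157 bases (159 on the other strand). Promoter windows of 250 bases before to 50 after the start were given for 68 of the 86 genes. The NRF1 core was in 19.1% of them (13 genes) against 3.05% of all 35116 promoters, the ETS core in 29.4% against 10.3%, and the YY1 core in 11.8% against 1.75%. The CCAAT box was in 35.3% of them against 34.6% of all promoters. Genes with an NRF1 core had a median log2 fold change of -0.29 (13 genes) in the ridaforolimus-resistant line against parental cells, and genes without it had -0.29 (53 genes). With the ETS core the median was -0.34 (20 genes) and without it -0.26 (46 genes). A match describes letters only, not a bound site.

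Library depth was 13134567 to 15556246 counts, with 32356 to 33463 genes detected per library. Markers of the labelled line (7 of 7 tested, among them VIM, FN1 and AXL) summed to 3068 to 7766 CPM, the usual depth-normalised read count, here relative to the TMM-scaled library size, with 3068 to 3192 in parental, 4715 to 5483 in everolimus-resistant and 3847 to 7766 in ridaforolimus-resistant libraries. Their part in the subunit genes' values was not tested. Fibroblast markers summed to 6.52 to 16.4 CPM (LUM at 0 counts), leukocyte markers to 1.22 to 2.83 CPM (CD3E at 0), striated muscle markers to 1.17 to 2.39 CPM (MYH7 at 0) and endothelial markers to 3.73 to 15.7 CPM. The 3 receptors low in triple-negative cells summed to 44.7 to 63.5 CPM. The epithelial markers summed to 495 to 700 CPM, most of it KRT8 (263 to 428 CPM), with CDH1 at or under 0.229 CPM. Their median log2 fold change was -1.002 in the everolimus comparison (4 of 5 tested genes below 0, EPCAM at -1.94) and -0.43 in the ridaforolimus comparison (3 of 5, EPCAM at -1.12, KRT19 at 0.49). Over these marker lists, 1 gene passed the edgeR test in any comparison: ESRP1, an epithelial splicing regulator, between the resistant lines (log2 fold change 1.79, adjusted p = 0.0403).

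Most of the 83 tested genes had estimates below 0 in the ridaforolimus-resistant line, but no single gene passed the test. The median log2 fold change against parental cells was -0.30, with 72 of 83 estimates below 0. Over all 21223 genes tested the median was 0.01 and 48.7% of estimates were below 0. Protein-coding genes at a mean of at least 10 CPM, a level that 73 of the 83 reached, had -0.08 and 58.8%. In the everolimus-resistant line the median was -0.04, with 44 of 83 below 0, beside 0.02 and 47.6% over all genes. Between the resistant lines the ridaforolimus-resistant line was lower by a median of -0.26, with 73 of 83 below 0, beside -0.02 and 51.7% over all genes. Without the second everolimus-resistant library, 52 of 83 were below 0 between the resistant lines. Protein-coding genes at 10 CPM or more had -0.03 and 53.8% in the everolimus comparison and -0.05 and 55.8% between the resistant lines. The everolimus and ridaforolimus comparisons share the parental pair, so they are not independent of each other. In bulk RNA, fewer cells of a type and less RNA per cell cannot be told apart.

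Under edgeR's quasi-likelihood test with Benjamini-Hochberg adjustment over all genes, 0 of 83 subunit genes passed an adjusted p of 0.05 in each comparison. Over all genes 0.00471% passed in the everolimus comparison, 0.32% in the ridaforolimus comparison and 0.744% between the resistant lines. The lowest adjusted p among the 83 was 0.531 (ATP5MG), 0.0741 (NDUFB9) and 0.0873 (ATP5MG). At an unadjusted p under 0.05, 1 gene stood out in the everolimus comparison (ATP5MG, higher; 8.79% of all genes, 4.26% higher). There were 14 in the ridaforolimus comparison (14.5% of all genes) and 14 between the resistant lines (14.1%), of which 13 were lower and COX7B was higher in each. The lower ones compare with 7.17% of all genes in the ridaforolimus comparison and 6.56% between the resistant lines, and the higher one with 7.35% and 7.58%. DESeq2, run on the same genes, called 0, 3 and 4 subunit genes, where it called 0.707%, 2.7% and 3.1% of all genes, and limma-voom called 0 in each, with 0.00471%, 0.339% and 0.532% of all genes. The DESeq2 calls were NDUFA1, NDUFB9 and COX7B in the ridaforolimus comparison, with ATP5MG as well between the resistant lines.

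**Figure D1:**
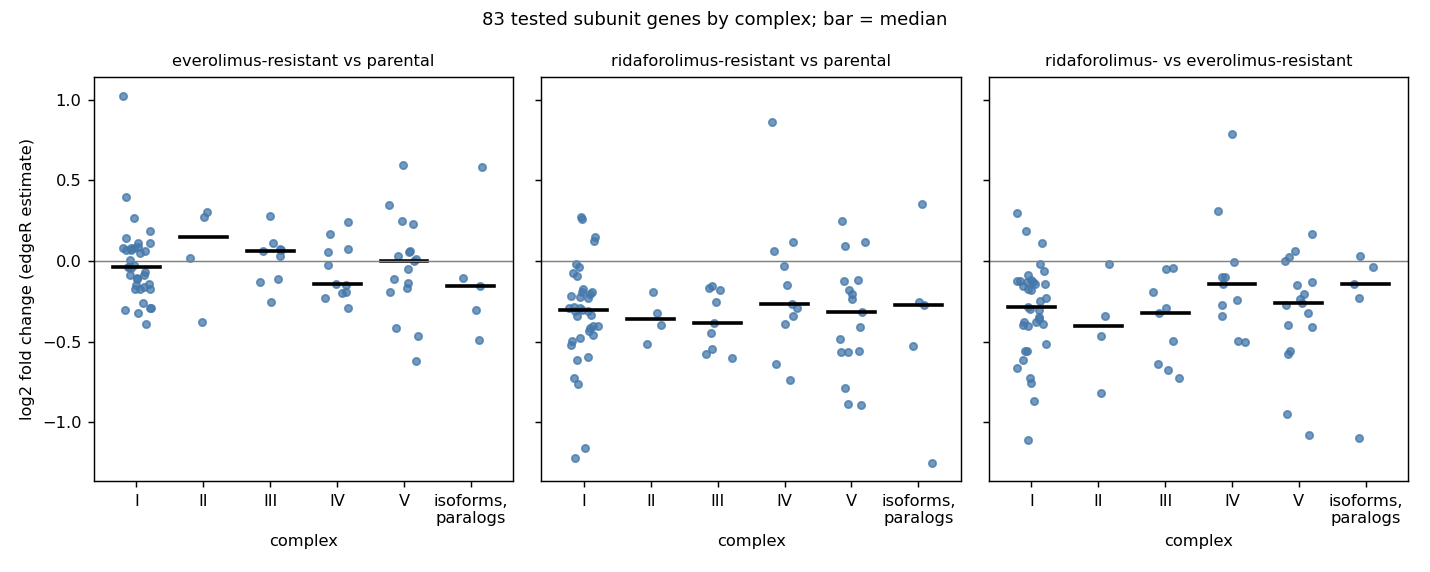
Log2 fold change of each of the 83 tested subunit genes (vertical axis) by complex (horizontal axis) in the 3 comparisons; points are genes and bars are medians. In the ridaforolimus-resistant line the medians of complexes I to V lie between -0.39 and -0.27, and COX7B (complex IV) lies apart at 0.87.

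By library, the summed level of the 86 genes was 5437 and 5638 CPM in the parental libraries, 4692 and 6032 CPM in the everolimus-resistant libraries and 4966 and 4267 CPM in the ridaforolimus-resistant libraries. The genes took between 0.434% and 0.587% of all counts. The parental libraries lie close together, the everolimus-resistant libraries lie on both sides of them, and both ridaforolimus-resistant libraries lie below them while the first overlaps the everolimus range. Group means were 5537 ± 142 CPM (SD, n = 2), 5362 ± 948 CPM and 4616 ± 495 CPM in that order. The second everolimus-resistant library was above the first for 70 of 83 genes, by a median of 0.39 log2 units, where 47.5% of all genes and 74.6% of other short coding genes were above. The second ridaforolimus-resistant library was below the first for 65 of 83 genes, with a median of -0.23, where 50.7% of all genes and 35.9% of other short coding genes were above the first. In the parental pair the second library was above the first for 42 of 83. Short coding genes here have a principal transcript under 1000 bases and a mean of at least 10 CPM. Mitochondrial ribosomal protein genes had medians of 0.40 (66 of 77 above) in the everolimus-resistant and -0.33 (69 of 77 below) in the ridaforolimus-resistant pair, and 0.11 (61 of 77 above) in the parental pair. The part of these library differences in the group comparisons was not tested. Without the second everolimus-resistant library the median against parental cells was -0.25 (0.10 without the first), and the median between the resistant lines was -0.09.

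**Figure D2:**
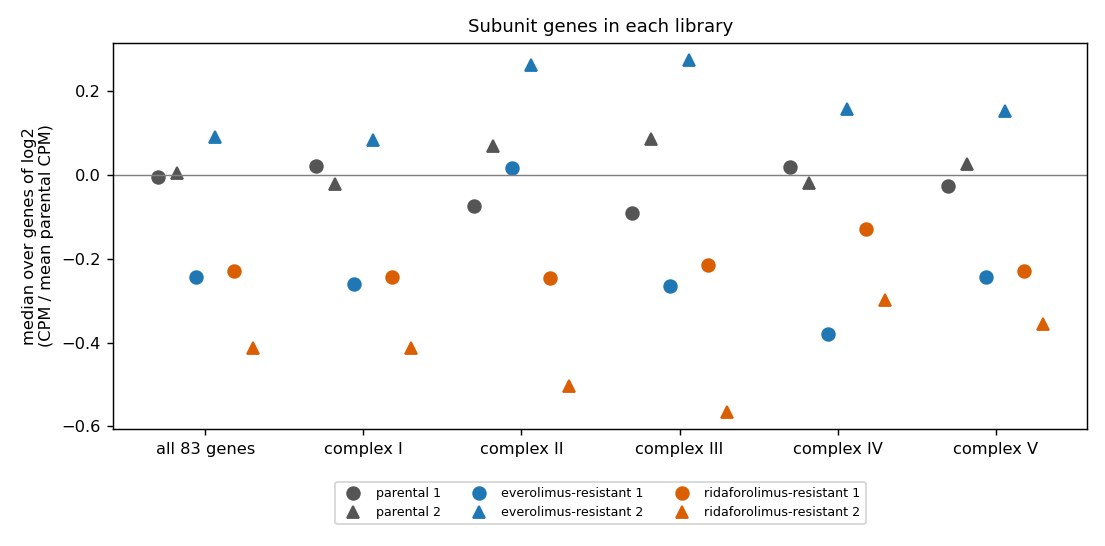
Median over genes of log2(CPM / mean parental CPM) in each of the 6 libraries (vertical axis) for all tested subunit genes and for each complex; circles are the first and triangles the second library of a group. Both ridaforolimus-resistant libraries are below 0 in every complex, and the everolimus-resistant libraries lie apart from each other (-0.24 and 0.09 over all genes).

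Groups that do not overlap were counted as a description. In the ridaforolimus comparison 55 of the 83 genes were lower in both resistant libraries than in either parental library (24.3% of all genes) and 3 were higher (25.1%), namely NDUFB4, COX7B and ATP5MK. In the everolimus comparison 14 were lower (20.5%) and 9 higher (20.6%). Between the resistant lines 30 were lower in the ridaforolimus-resistant line (20.4%) and 2 higher (20.9%), namely COX7B and COX4I1. Both ridaforolimus-resistant libraries held the lowest values of all 6 for 24 genes (11.7% of all genes) and the highest for COX7B alone (12.7%). For 5 genes both everolimus-resistant libraries were above and both ridaforolimus-resistant libraries below the parental pair (2.48% of all genes): NDUFA11, NDUFV3, NDUFV2, SDHD and ATP5MG.

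Complex I subunits were lower in the ridaforolimus-resistant line for 33 of 37 genes, with a median log2 fold change of -0.30. Of the 37, 27 did not overlap parental values on the lower side (24.3% of all genes) and 1, NDUFB4, on the higher side (25.1%). The 7 core catalytic subunits, which carry the flavin and the iron-sulfur clusters, had a median of -0.22 (7 of 7 below 0). The accessory subunits had medians of -0.29 (A family, 13 genes), -0.33 (B family, 11 genes) and -0.37 (C, S and V families, 6 genes). In the everolimus-resistant line the complex I median was -0.04, with 21 of 37 below 0.

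NDUFA1, an accessory subunit of the membrane arm encoded on the X chromosome (chrX:119871487-119876662, GRCh38, plus strand), had the largest complex I difference. It measured 29.1 and 29.3 CPM in parental cells, 21.7 and 32.4 CPM in the everolimus-resistant line and 13.9 and 11.1 CPM in the ridaforolimus-resistant line. Both ridaforolimus-resistant libraries lie below the other 4, and the everolimus-resistant libraries straddle the parental ones. The log2 fold change was -1.22 ± 0.26 (SE; 95% interval -1.81 to -0.63, adjusted p = 0.105) against parental cells and -1.11 ± 0.26 (adjusted p = 0.107) against the everolimus-resistant line. NDUFB9, a membrane-arm subunit on chromosome 8, measured 35.4 and 30.0 CPM, then 25.2 and 28.2 CPM, then 15.8 and 13.4 CPM. Its values were ordered parental, everolimus-resistant, ridaforolimus-resistant without overlap. The log2 fold change of NDUFB9 in the ridaforolimus-resistant line was -1.16 ± 0.21 (95% interval -1.65 to -0.67, adjusted p = 0.0741).

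NDUFV3, an accessory subunit of the NADH-oxidising module on chromosome 21 whose upstream sequence is printed above, measured 42.2 and 38.5 CPM in parental cells, 43.8 and 43.3 CPM in the everolimus-resistant line and 25.3 and 27.3 CPM in the ridaforolimus-resistant line. The ridaforolimus-resistant pair was lowest, at a log2 fold change of -0.62 ± 0.18 (adjusted p = 0.208). NDUFA3 measured 41.0 and 31.8 CPM, then 24.7 and 30.9 CPM, then 20.1 and 22.6 CPM, with log2 fold changes of -0.39 ± 0.22 in the everolimus-resistant and -0.77 ± 0.23 (adjusted p = 0.203) in the ridaforolimus-resistant line. NDUFB11, the other complex I gene on the X chromosome, was at -0.48 ± 0.22 (adjusted p = 0.375) in the ridaforolimus-resistant line. Among complex I genes at 10 CPM or more, NDUFB4 was the highest there, at 0.26 ± 0.21. It measured 64 and 74.3 CPM against 62.3 and 53.2 CPM in parental cells. NDUFA7, with a mean of 1.05 CPM, was at 0.27. NDUFA11 had the highest everolimus estimate of complex I at 10 CPM or more, 0.40 ± 0.21 (adjusted p = 0.636).

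**Figure D3:**
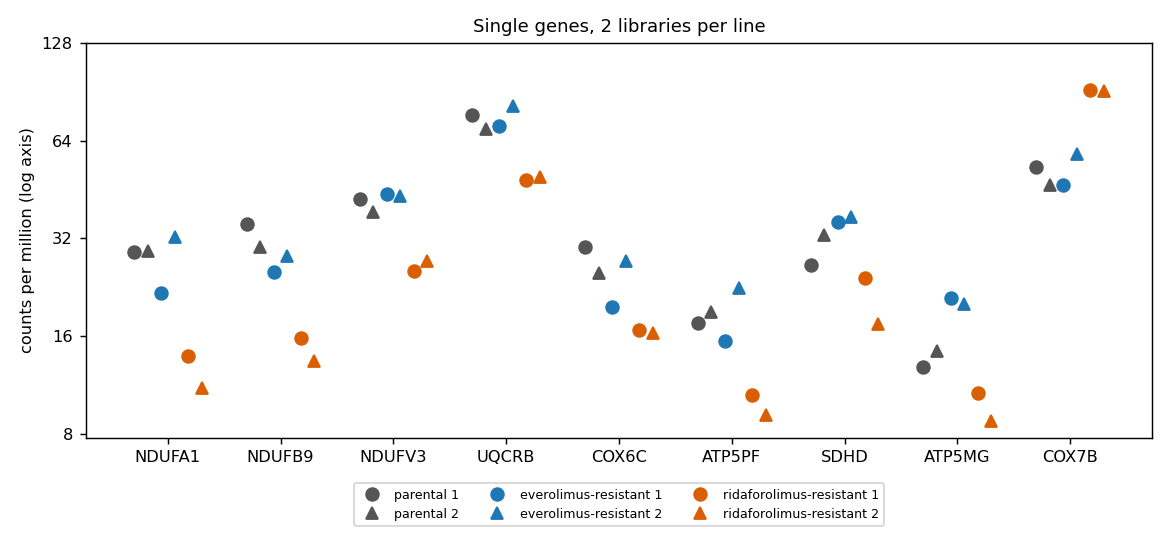
CPM (vertical axis, log scale) of 9 subunit genes in the 6 libraries; circles are the first and triangles the second library of a group. The orange ridaforolimus-resistant points are lowest for the first 8 genes and highest for COX7B, where they sit at 91.3 and 90.6 CPM.

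Complex II, succinate dehydrogenase, also works in the tricarboxylic acid cycle. All 4 of its genes were below 0 in the ridaforolimus-resistant line, with a median of -0.36, and 3 of 4 were above 0 in the everolimus-resistant line. SDHD, which anchors the enzyme in the membrane, measured 26.4 and 32.8 CPM in parental cells, 35.9 and 37.3 CPM in the everolimus-resistant line and 24.1 and 17.4 CPM in the ridaforolimus-resistant line. The resistant lines thus lay on opposite sides of the parental values, and they differed by -0.82 ± 0.23 (ridaforolimus over everolimus, adjusted p = 0.168). SDHB, the iron-sulfur subunit, was lower in both lines, at -0.38 ± 0.20 and -0.40 ± 0.20. SDHA, the flavoprotein, was at 0.28 ± 0.24 and -0.19 ± 0.24.

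Complex III had 9 of 9 genes below 0 in the ridaforolimus-resistant line, with a median of -0.39, and 7 did not overlap parental values on the lower side (24.3% of all genes). UQCRFS1, the Rieske iron-sulfur protein, had the lowest estimate, -0.60 ± 0.25 (adjusted p = 0.33), at 52.2 and 41.6 CPM against 64.9 and 77.6 CPM in parental cells and 59.0 and 91.1 CPM in the everolimus-resistant line. UQCRB, which binds near the ubiquinone site, measured 76.9 and 69.4 CPM in parental cells, 70.8 and 81.8 CPM in the everolimus-resistant line and 48.5 and 49.5 CPM in the ridaforolimus-resistant line. Its ridaforolimus values were lowest and close together, and its estimates were -0.58 ± 0.18 (adjusted p = 0.226) against parental and -0.64 ± 0.18 (adjusted p = 0.168) against everolimus-resistant cells. CYC1, cytochrome c1, was at -0.55 ± 0.25. UQCRC1, a core protein, was nearest to 0, at -0.15 ± 0.19. UQCRQ was highest in the second everolimus-resistant library (58.0 CPM against 31.9 in the first) and differed between the resistant lines by -0.73 ± 0.31 (adjusted p = 0.35).

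Complex IV was the most mixed, with 8 of 11 genes below 0 in the ridaforolimus-resistant line and a median of -0.27. COX7B, a small subunit encoded on the X chromosome (chrX:77899438-77907373, GRCh38, plus strand), measured 53.1 and 46.8 CPM in parental cells, 46.8 and 58.4 CPM in the everolimus-resistant line and 91.3 and 90.6 CPM in the ridaforolimus-resistant line. It was the 1 gene of the 83 whose ridaforolimus-resistant libraries were both above all others. The log2 fold change was 0.87 ± 0.19 (95% interval 0.42 to 1.31, adjusted p = 0.117) against parental and 0.79 ± 0.19 (adjusted p = 0.125) against everolimus-resistant cells. COX6C, on chromosome 8, lay at the other end, with 30.2 and 25 CPM in parental cells and 16.7 and 16.4 CPM in the ridaforolimus-resistant line, a log2 fold change of -0.74 ± 0.24 (adjusted p = 0.236). COX4I1, the main regulatory subunit, was at 0.12 ± 0.20, and COX7C at -0.03 ± 0.19, or 0.06 with upper-quartile scaling.

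Complex V had 14 of 17 genes below 0 in the ridaforolimus-resistant line, with a median of -0.31. The 4 genes of the peripheral stalk, which holds the catalytic head still against the rotor, had a median of -0.72. They ranged from ATP5PF at -0.89 to ATP5PD at -0.13. The 5 genes of the F1 head had a median of -0.23, the 3 of the c ring -0.18 and the 5 of the membrane and dimer part -0.31. ATP5PF, a stalk subunit on chromosome 21, measured 17.6 and 18.9 CPM in parental cells, 15.4 and 22.5 CPM in the everolimus-resistant line and 10.5 and 9.13 CPM in the ridaforolimus-resistant line. The ridaforolimus-resistant pair was lowest, at -0.89 ± 0.26 (adjusted p = 0.197) against parental cells. ATP5PO, another stalk subunit on chromosome 21 that was singled out after its values were seen, was at -0.89 ± 0.32 (adjusted p = 0.279), with 11 and 7.25 CPM in parental and 5.41 and 4.46 CPM in ridaforolimus-resistant cells.

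ATP5MG, which encodes subunit g of the membrane part, was the subunit gene with the lowest unadjusted p in the everolimus comparison. It measured 12.8 and 14.4 CPM in parental cells, 21 and 20.2 CPM in the everolimus-resistant line and 10.7 and 8.77 CPM in the ridaforolimus-resistant line. The 3 groups did not overlap. The log2 fold change was 0.60 ± 0.23 (adjusted p = 0.531) in the everolimus-resistant line, -0.49 ± 0.23 (adjusted p = 0.378) in the ridaforolimus-resistant line and -1.08 ± 0.23 (95% interval -1.61 to -0.55, adjusted p = 0.0873) between them. ATP5MC1, of the c ring, had the lowest everolimus estimate of complex V at 10 CPM or more, -0.42 ± 0.28. ATP5MK, which supports dimers of the enzyme, was at 0.25 in both lines (SE 0.30 and 0.31), and ATP5MC2 at 0.12 ± 0.18 in the ridaforolimus-resistant line.

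Among the tissue isoforms and paralogs, COX7A2L, which takes part in joining complexes III and IV into supercomplexes, was the only one above 10 CPM, at 78.7 and 80.4 CPM in parental cells, and was at -0.30 ± 0.22 and -0.27 ± 0.22. NDUFA4L2, a hypoxia-induced paralog of NDUFA4, varied within groups, from 9.42 to 2.12 CPM in the everolimus-resistant pair and from 7.55 to 2.85 CPM in the ridaforolimus-resistant pair. COX7A1, the muscle form of COX7A, ranged from 3.11 to 7.82 CPM. COX6B2, a testis form, was at or under 1.22 CPM in every library. UQCRHL, a near-identical copy of UQCRH whose reads the counting could split, was at 3.89 to 7.03 CPM.

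Levels were compared between genes only as CPM per kilobase of a principal transcript, a length that depends on the transcript chosen. ATP5F1B, the catalytic beta subunit of the ATP synthase, was highest at 303 CPM per kilobase over the 6 libraries, followed by COX4I1 (235), COX7C (231), COX5A (187), UQCRH (175) and NDUFS5 (158). Median levels per kilobase were 91.6 for complex IV, 64 for complex V, 49.6 for complex III, 29.9 for complex I and 12.4 for complex II. The complex II median rests on 4 genes and on the transcripts chosen. SDHC, at 63.7 CPM, came to 4.69 per kilobase over a transcript of 13566 bases. NDUFS8 (138) was the second of complex I, CYC1 (119) of complex III and ATP5MK (132) of complex V, and SDHB (43.1) was the first of complex II.

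The genes lie on 22 chromosomes, and their differences were compared with those of genes around them. For each member the median log2 fold change of other tested genes that start within 5 Mb was taken. Across the 83 genes it correlated with the member's own value at r = 0.66 (Spearman's rho = 0.58) in the ridaforolimus comparison, 0.77 (0.74) between the resistant lines and 0.28 (0.31) in the everolimus comparison. These are descriptions over genes that share libraries, and members close together share neighbours. Without the X chromosome, r was 0.55, 0.74 and 0.28 over 80 genes. Members were below their neighbours for 75 of 83 genes in the ridaforolimus comparison, by a median of -0.31 log2 units. Neighbours were tested genes of any type and level. Protein-coding genes at a mean of at least 10 CPM had a median of -0.08 (58.8% below 0) there, beside 0.01 (48.7%) over all genes. No such count was made for other genes.

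COX7B lay in a region where the median of its 32 tested neighbours was 1.69, with 0 of 32 below 0. Around NDUFA1, on the same chromosome, the median of 42 neighbours was -0.65, with 35 below 0. Around NDUFB11 it was -0.04 over 78 neighbours. NDUFB9 was at -1.16 where its 51 neighbours had a median of -0.21. Neighbours of UQCRB, COX6C and CYC1, also on chromosome 8, had medians of -0.26, -0.39 and -0.06. The 4 genes on chromosome 8 (NDUFB9, UQCRB, COX6C and CYC1) had a median of -0.66 beside 0.03 for 729 other genes of that chromosome. The 3 on chromosome 21 had -0.89 beside -0.30 for 195 others, and the 12 on chromosome 19 had -0.34 beside -0.28 for 1273 others. SDHD and ATP5MG, both on chromosome 11, had neighbours at 0.33 and 0.21 in the everolimus-resistant line and at -0.24 and -0.16 in the ridaforolimus-resistant line. Copy number was not measured, and its part in these values was not tested. Without the genes on chromosomes X and 8, the median in the ridaforolimus comparison was -0.29 over 76 genes. That set keeps the genes on chromosomes 19 and 21. In it 9 genes (11.8%), all lower, had an unadjusted edgeR p under 0.05, beside 14.5% of all genes (7.17% lower).

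**Figure D4:**
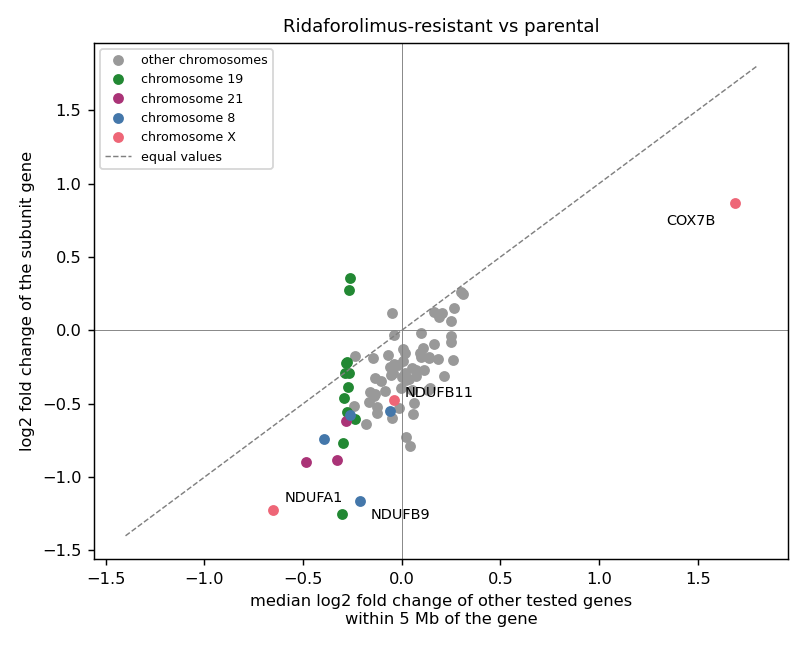
Log2 fold change of each of the 83 subunit genes in the ridaforolimus-resistant line against parental cells (vertical axis) against the median of other tested genes within 5 Mb (horizontal axis), coloured by chromosome; the dashed line marks equal values. Most points lie below the line (75 of 83), and COX7B and NDUFA1 lie at opposite ends of the horizontal axis, at 1.69 and -0.65.

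Short transcripts as a class were also lower in the ridaforolimus-resistant line. Among other protein-coding genes at a mean of at least 10 CPM, those with a principal transcript under 1000 bases had a median of -0.21 (512 genes, 70.7% below 0) and the longer ones -0.07 (9214 genes). With the longest principal transcript as the length, which was the first definition used, the short class had a median of -0.27 (322 genes, 76.7% below 0). The subunit genes had -0.29 for 47 short and -0.36 for 36 longer transcripts. The part of transcript length in the subunit genes' values was not tested. A mean of at least 10 CPM, the length limit and this split were set after the values had been seen.

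Other genes of the pathway were taken from 14 lists, of which 0 had a gene past the threshold in any comparison. In the ridaforolimus comparison, mitochondrial ribosomal proteins were below 0 for 69 of 77 genes (median -0.39, lowest MRPS18A at -1.10 ± 0.27, highest MRPS28 at 0.39 ± 0.38), and protein import genes for 21 of 25 (median -0.49, lowest TIMM8A at -1.81 ± 0.36 with adjusted p = 0.0940, highest TOMM7 at 0.69 ± 0.23). Assembly factors were below 0 for 12 of 19 genes of complex I (median -0.42, NDUFAF4 at -0.88 to COA1 at 0.91), 4 of 4 of complex II (-0.49), 5 of 6 of complex III (-0.56), 20 of 24 of complex IV (-0.18) and 3 of 4 of complex V (-0.38). Tricarboxylic acid cycle enzymes were below 0 for 12 of 15 genes (median -0.29, from IDH3A at -0.56 to IDH2 at 0.50). Electron carriers and ubiquinone synthesis genes were closer to even, with 8 of 14 below 0 (median -0.03), and cytochrome c (CYCS) was the lowest of them at -0.55 ± 0.29. Carriers and uncoupling proteins had 5 of 9 below 0 (median -0.06, UCP2 lowest at -1.56 ± 0.47), and pyruvate dehydrogenase genes 7 of 12 (median -0.11, with PDK1, which inhibits the complex, highest at 0.92 ± 0.37). The small list of other isoforms, COX4I2 and COX8C, had no gene tested.

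In the everolimus comparison the mitochondrially encoded subunits were below 0 for 13 of 13 genes, with a median of -0.70, while the nuclear-encoded subunits had -0.04. The same 13 were below 0 in the ridaforolimus comparison (median -0.46), and 10 of 13 were higher in the ridaforolimus-resistant than in the everolimus-resistant line (median 0.38). Their summed level was 45054 and 30646 CPM in parental cells, 22531 and 22010 CPM in the everolimus-resistant line and 24154 and 31156 CPM in the ridaforolimus-resistant line. The parental libraries differed from each other, and the second ridaforolimus-resistant library reached above the lower of them. MT-ND2, a core subunit of complex I, had the lowest estimate, -1.41 ± 0.26 (adjusted p = 0.208) in the everolimus-resistant and -1.03 ± 0.25 (adjusted p = 0.149) in the ridaforolimus-resistant line.

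Regulators of mitochondrial biogenesis had 7 of 16 genes below 0 in the everolimus comparison (median 0.04) and 11 of 16 in the ridaforolimus comparison (median -0.18). PPARGC1A, which encodes PGC-1alpha, measured 6.04 and 7.25 CPM in parental cells, 34.2 and 13.2 CPM in the everolimus-resistant line and 5.03 and 5.26 CPM in the ridaforolimus-resistant line. Both everolimus-resistant libraries were above the rest but far from each other. Its log2 fold change was 1.83 ± 0.42 (adjusted p = 0.332) in the everolimus-resistant line and -2.20 ± 0.43 (adjusted p = 0.0709) between the resistant lines. GABPA was the lowest of the list in the ridaforolimus-resistant line, at -0.53 ± 0.23, and PPARGC1B the highest, at 0.47 ± 0.26.

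**Figure D5:**
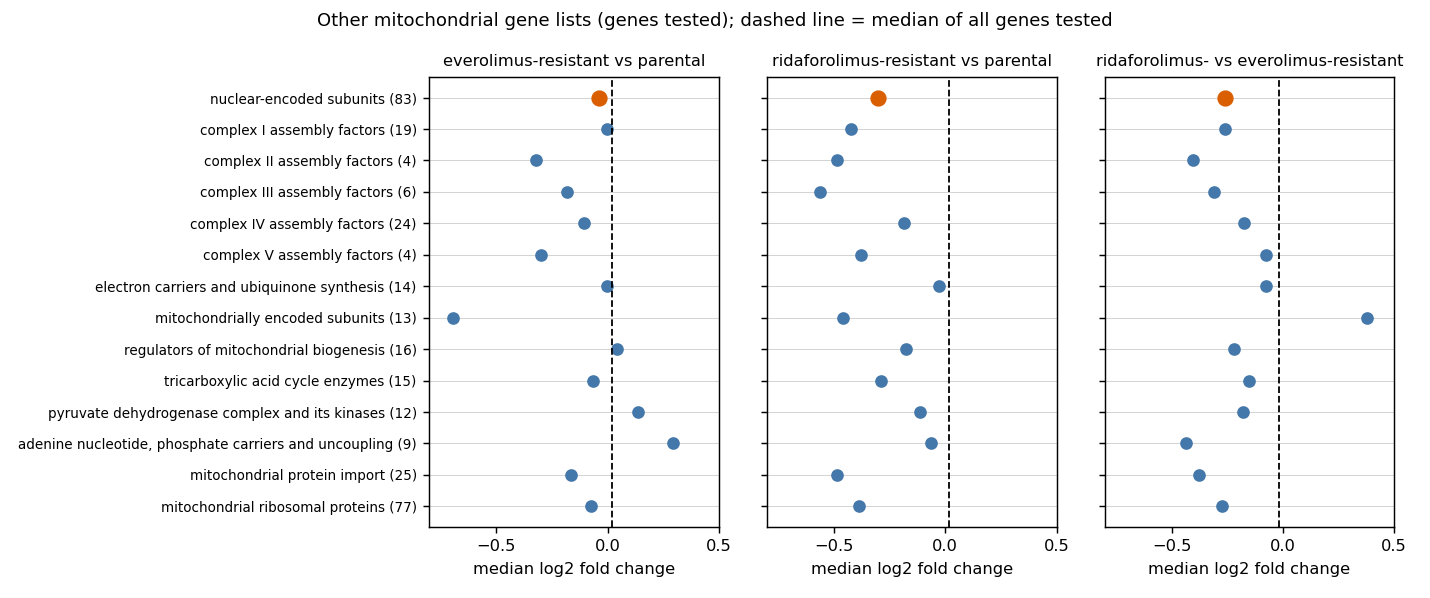
Median log2 fold change (horizontal axis) of the 83 tested nuclear-encoded subunits (orange) and of 13 other mitochondrial gene lists (blue) in the 3 comparisons, with the number of genes tested in brackets; the dashed line is the median of all genes tested. In the ridaforolimus comparison every list lies left of the line. Protein-coding genes at a mean of at least 10 CPM had a median of -0.08 there, which is not drawn. Electron carriers (-0.03) and carriers and uncoupling proteins (-0.06) lie to the right of that value. In the everolimus comparison the mitochondrially encoded subunits lie farthest left (-0.70).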

How the data were processed

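RNA sequencing counts were used from 6 libraries of MDA-MB-231 lines, 2 per group. The deposited table holds whole-number read counts for Ensembl gene IDs, without normalisation by the authors. Trim Galore 0.6.6, STAR 2.7.9a, HTSeq 0.13.5, DESeq2 and GRCh38 (hg38) are named without roles, per the submitters' processing notes. The libraries came from a stranded mRNA kit that selects polyadenylated RNA, per the labels' protocols. The annotation release and the strandedness of counting were not given in the sources used here, so counts of overlapping genes are uncertain. More than 20% of the exon bases of COX6B2, COX8A, NDUFA13, NDUFA7, NDUFB8 and NDUFV2 overlap another gene on the same strand.

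Gene types, positions and transcript lengths came from GENCODE 29 (GRCh38), and symbols from the reference tables given, which matched 42372 IDs. Length is the lower median of the best-supported principal transcripts. This definition replaced the longest principal transcript after the first levels had been seen, and the effect on short genes is printed with both.

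edgeR 4.0.16 (R 4.3.3) was run with TMM scaling, filterByExpr by group and a quasi-likelihood test on 3 group means, which leaves 3 residual degrees of freedom. The p-values are two-sided and Benjamini-Hochberg adjusted over 21223 genes. Log2 fold changes are first group over second, ± SE. DESeq2 1.42.0 and limma 3.58.1 (voom), other scalings and filters, a replicate block and leaving out each library were alternatives. The code was tested on simulated counts.

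Genes were named by a rule: the lowest and highest estimates per complex and comparison at 10 CPM or more, an unadjusted p under 0.01, the highest 2 levels per complex, isoforms, genes on the X chromosome, and the extremes of each other list at 1 CPM or more. The members and lists were chosen with earlier results of these data known. Neighbour, chromosome, transcript length and library comparisons beyond the fixed design were chosen after seeing the data. Each SE was computed from the log2 fold change and the quasi-likelihood F statistic of the fit. The 95% intervals were built from these SEs with a t quantile. One further marker list is not reported here.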

Additional observations from a re-analysis of the deposited data

Results flagged for a closer look

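For 5 subunit genes every everolimus-resistant library was above, and every ridaforolimus-resistant library below, both parental libraries, a pattern that 2.48% of all genes tested showed. The genes were picked by this pattern, which by itself makes the difference between the resistant lines negative. The p-values below come from the same libraries, so they cannot test the pattern. The direct difference (ridaforolimus over everolimus, edgeR) passed for none of these genes. It was -1.08 ± 0.23 for ATP5MG (adjusted p = 0.0873), -0.82 ± 0.23 for SDHD (adjusted p = 0.168), -0.73 ± 0.18 for NDUFV3 (adjusted p = 0.136), -0.62 ± 0.22 for NDUFA11 (adjusted p = 0.257) and -0.25 ± 0.22 for NDUFV2 (adjusted p = 0.666). NDUFV2 and NDUFV3 code for parts of the NADH-oxidising module of complex I, and 28.4% of the exon bases of NDUFV2 overlap another gene on its strand.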

How the results depend on the processing

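The count of subunit genes called was 0 in the everolimus comparison under every alternative run. In the ridaforolimus comparison it was 3 without a filter on low counts and 3 with DESeq2 (NDUFA1, NDUFB9 and COX7B in both), and leaving out 1 library at a time gave 0 to 2. Between the resistant lines it was 3 without the filter, 4 with DESeq2 and 0 with each library left out. The cause was not tested. Calls appeared in the ridaforolimus comparison when an everolimus-resistant library was left out (NDUFA1 and NDUFB9 without the first, NDUFA1 without the second). Calls over all genes also rose in these fits, which leave 1 everolimus-resistant library. The rise in calls was therefore not limited to the subunit genes. The median over subunit genes in that comparison was -0.21 with upper-quartile scaling, where the median of all genes was 0.11, and -0.42 to -0.22 with each library left out. In the everolimus comparison leaving out each library gave medians of -0.25 (without the second everolimus-resistant library) to 0.10. The direction of that median thus rests on single libraries, as it does for complexes I, III, IV and V. Between the resistant lines the medians ran from -0.45 to -0.09. Without the second everolimus-resistant library the complex III and IV medians between the resistant lines were 0.007 and 0.08, so their direction also rests on single libraries. The everolimus median was also above 0 with upper-quartile scaling (0.01). Without isoforms and paralogs the medians were -0.03, -0.31 and -0.27. Same-numbered libraries' deviations correlated at 0.37 (parental and everolimus), -0.20 (parental and ridaforolimus) and -0.21 (everolimus and ridaforolimus). With 2 libraries per group the sign depends on the numbering, so these values cannot exclude a pairing or a shared batch. With the replicate block the medians were -0.04, -0.31 and -0.26 and 0 subunit genes were called in each comparison, while calls over all genes went from 1, 68 and 158 to 0, 28 and 49. Without the filter on low counts they were 493, 1195 and 1362, and with DESeq2 150, 574 and 657. Libraries of a group differed by more than counting noise (chi-square per degree of freedom 13.5 to 33.5). Of the 83 genes, 73 had a mean of at least 10 CPM, with a ridaforolimus median of -0.31. The other genes rest on few reads.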
